A study of Mus musculus with 4 samples.

Results

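The mitochondrial genome encodes 37 genes, and all 37 were present in the RNA-seq tables of JB1 cells, among 55602 genes in all. They were chosen by position, as the genes on chromosome M, and comprise 13 mRNA, 2 rRNA and 22 tRNA genes. JB1 is a hybrid embryonic stem cell (ESC) line from a JF1 mother and a C57BL/6 (B6) father. Wild-type JB1 cells and the JB1-derived *Zfp57*-/- line, 1 mutant line in which the imprint-maintaining zinc finger protein ZFP57 is inactivated, were both differentiated towards cortical neural precursors for 12 days. Both received the hedgehog pathway inhibitor cyclopamine at 1 µM from day 2 to day 10. RNA was sequenced from 2 biological replicates of each genotype after rRNA depletion.

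Both strands of the circular mitochondrial DNA are transcribed almost end to end, by the polymerase POLRMT with the factor TFAM, into long precursors. Most mRNAs and rRNAs are flanked by tRNAs, and the precursors are cut at the tRNAs to release the mature RNAs. The mRNAs encode subunits of respiratory complexes I, III and IV and of ATP synthase, while every protein that transcribes, cuts and translates these RNAs comes from nuclear genes. Mitochondrial DNA is inherited from the mother, so that JB1 cells are expected to carry the JF1 form.

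Among the 3 classes of mitochondrial RNA, the tRNAs differed most between the genotypes. Their summed share of counts in *Zfp57*-/- cells was 0.171 times that in wild-type, against 0.552 times for the rRNAs and 0.754 times for the mRNAs. Of the 22 tRNAs, 13 had enough counts to be tested. Of these, 6 were called lower in *Zfp57*-/- cells, where 14.6% of all genes tested were. The sequences of the 6 are shown to identify the genes. They are given 5′ to 3′ as the gene's own strand in DNA letters, from GENCODE vM21 on GRCm38, with the anticodon in capitals. These are reference sequences, and whether the JF1 form expected in JB1 cells differs from them was not analysed.
mt-Tm (methionine, chrM:3845-3913, plus strand): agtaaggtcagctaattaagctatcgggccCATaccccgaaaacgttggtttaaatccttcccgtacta
mt-Tw (tryptophan, chrM:4950-5016, plus strand): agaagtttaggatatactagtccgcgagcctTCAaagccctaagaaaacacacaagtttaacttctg
mt-Tg (glycine, chrM:9391-9458, plus strand): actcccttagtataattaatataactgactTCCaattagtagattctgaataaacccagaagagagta
mt-Tl2 (leucine, chrM:11671-11741, plus strand): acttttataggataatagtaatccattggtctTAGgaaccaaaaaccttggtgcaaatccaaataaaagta
mt-Tt (threonine, chrM:15289-15355, plus strand): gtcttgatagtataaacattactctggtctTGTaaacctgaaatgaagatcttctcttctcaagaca
mt-Tp (proline, chrM:15356-15422, minus strand): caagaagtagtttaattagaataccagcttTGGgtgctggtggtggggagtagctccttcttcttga

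Bulk counts per library ranged from 7663520 to 10337082. The wild-type replicates differed from each other more than the *Zfp57*-/- replicates did, with a chi-square per gene of 41.7 against 8.32, and the first wild-type replicate stood apart in its mitochondrial share. *Zfp57* itself had 392 and 249 counts in wild-type against 158 and 144 in *Zfp57*-/- libraries, a log2 fold change of −1.19 ± 0.32 (SE, adjusted p = 0.0225, edgeR). These counts cover all its exons, not the deleted part alone, and so do not check the deletion itself. Pluripotency markers made up 0.0083% and 0.0159% of wild-type counts and 0.143% and 0.128% of *Zfp57*-/- counts, and 9 of the 10 were called higher in *Zfp57*-/- cells. The 12 neural markers made up 0.19% and 0.22% of wild-type counts and 0.0319% and 0.0294% of *Zfp57*-/- counts, and 9 of the 12 were called lower, although both genotypes are labelled as neural progenitors. Of the 8 endoderm and mesoderm markers, 1 was called higher and 1 lower. These marker counts stand beside 13% of all genes tested called higher and 14.6% called lower. The differences between genotypes below go together with these marker levels, whose part in them was not tested. In bulk RNA, fewer cells of a type and less RNA per cell cannot be told apart.

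The 37 genes together took 3.05% and 1.9% of all counts in the wild-type libraries and 1.47% and 1.8% in the *Zfp57*-/- libraries. The mRNAs gave 1.64% and 1.04% in wild-type and 0.939% and 1.08% in *Zfp57*-/- libraries, so that the groups overlapped. The rRNAs, as far as the depletion left them, gave 1.41% and 0.852% in wild-type and 0.528% and 0.717% in *Zfp57*-/- libraries, which did not overlap. The tRNAs summed to 884 and 749 counts in wild-type against 117 and 207 in *Zfp57*-/- libraries. That is 0.00943% ± 0.00298 (SD, n = 2) of all counts in wild-type against 0.00161% ± 0.000549 (SD, n = 2) in *Zfp57*-/- cells. With 2 libraries against 2, an exact two-sided permutation test cannot give a p below 0.333, so that these shares are given without a test.

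Genes with more than 8 counts over the 4 libraries were tested with edgeR's quasi-likelihood test across 19995 genes, with Benjamini-Hochberg adjustment, and called at an adjusted p under 0.05. Of the 37 mitochondrial genes 28 could be tested: all mRNAs, both rRNAs and 13 tRNAs. Of these, 10 were called lower in *Zfp57*-/- cells, where 14.6% of all genes tested were. They were 3 mRNAs, 1 rRNA and 6 tRNAs. None was called higher, by edgeR or by DESeq2, where edgeR called 13% of all genes tested higher, and 0 members were higher at an unadjusted p under 0.05. The median log2 fold change was −0.47 over the mRNAs, −0.75 over the rRNAs and −2.53 over the tested tRNAs, against −0.010 over all genes tested. The mRNA median depended on the wild-type replicates. Without the first it was −0.11, with 8 mRNAs negative and 5 positive, and without the second −0.78, with all 13 negative.

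The order of the mRNA levels was largely shared by the 4 libraries. Per kb of gene length, *mt-Co1*, the catalytic core subunit of complex IV, had 4652 and 2859 CPM (counts scaled to library size) in wild-type and 2733 and 3300 in *Zfp57*-/- libraries. *mt-Cytb*, the cytochrome b of complex III, had 2270 and 1767 CPM per kb in wild-type and 1984 and 2297 in *Zfp57*-/- libraries. *mt-Atp6*, a proton channel subunit of ATP synthase, came next, with 2235 and 1481 in wild-type and 1094 and 1396 in *Zfp57*-/- libraries. By the counts assigned to chromosome M, these 3 mRNAs stood in the same order in all 4 libraries. On that basis the values of *mt-Cytb* and *mt-Atp6* overlapped across libraries, while those of *mt-Co1* lay above both. *mt-Atp6*, *mt-Co2*, *mt-Co3*, *mt-Nd4* and *mt-Nd4l* have nuclear copies on chromosome 1, described below, that are identical in the reference sequence over the aligned bases. Those of *mt-Co1* and *mt-Nd3* differ at 1 aligned base, and none of the chromosome 1 copies matches *mt-Cytb*. The copy of *mt-Atp6* alone held between 4735 and 7794 fragments a library, beside 6941 to 12292 for the gene. Reads matching both places equally were lost, so that the order of the RNAs themselves was not tested. *mt-Nd6*, the complex I subunit that is the only mRNA on the minus strand, was the lowest in all 4 libraries.

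**Figure D1:**
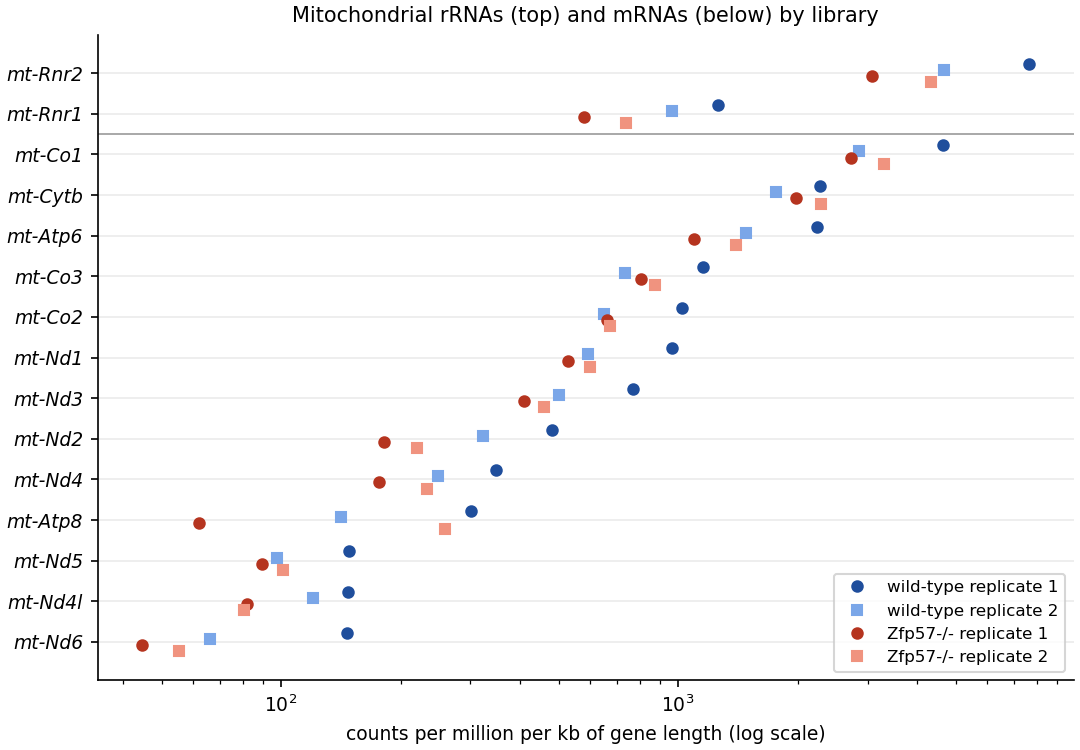
Levels of the 2 mitochondrial rRNAs and 13 mRNAs in each library, in CPM per kb of gene length on a log axis, with 1 point per library. The first wild-type replicate is the highest point for 14 of the 15 genes, and *mt-Cytb* is the exception.

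Of the 13 mRNAs, 3 were called lower, where 14.6% of all genes tested were. These 3 encode subunits of complex I, the NADH dehydrogenase, to which more of the 13 mRNAs belong than to any other complex. *mt-Nd2* (chrM:3914-4951) had 480 and 322 CPM per kb in wild-type and 182 and 220 in *Zfp57*-/- libraries, and the groups did not overlap. Its log2 fold change was −0.99 ± 0.23 (SE, adjusted p = 0.0115, edgeR). *mt-Nd4l* (chrM:9877-10173) had 147 and 121 CPM per kb in wild-type and 82 and 80.5 in *Zfp57*-/- libraries, a log2 fold change of −0.72 ± 0.21 (SE, adjusted p = 0.0304, edgeR). *mt-Nd6* (chrM:13552-14070, minus strand) had 146 and 66.2 CPM per kb in wild-type and 44.7 and 55.3 in *Zfp57*-/- libraries, a log2 fold change of −1.08 ± 0.33 (SE, adjusted p = 0.0372, edgeR). The second wild-type replicate lay close to the *Zfp57*-/- libraries for *mt-Nd6*, and its call was lost with upper-quartile scaling. None of these 3 was called when the first *Zfp57*-/- replicate was left out, and *mt-Nd4l* was also lost without the second.

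The other complex I mRNAs did not pass the test, with log2 fold changes of −0.47 for *mt-Nd1*, −0.55 for *mt-Nd3*, −0.54 for *mt-Nd4* and −0.37 for *mt-Nd5*. Among the complex IV mRNAs, the values were −0.32 for *mt-Co1*, −0.32 for *mt-Co2* and −0.17 for *mt-Co3*, and none passed. *mt-Cytb* had a log2 fold change of 0.08 ± 0.21 (SE, adjusted p = 0.802, edgeR), the only positive value among the tested members. It turned to −0.67 with *Actb* as the scale, a setting that moved the median of all genes to −0.68, to −0.088 without the second wild-type and to −0.018 without the second *Zfp57*-/- replicate. As a share of the mitochondrial mRNA counts, *mt-Cytb* took 16.7% and 19.9% in wild-type and 23.6% and 23.1% in *Zfp57*-/- libraries, which did not overlap. *mt-Nd2* took 3.21% and 3.29% of them in wild-type and 1.96% and 2.01% in *Zfp57*-/- libraries. *mt-Atp6* had a log2 fold change of −0.58 ± 0.24 (SE, adjusted p = 0.105, edgeR). Its neighbour *mt-Atp8*, a small membrane subunit of ATP synthase, had 496 and 302 counts in wild-type against 118 and 516 in *Zfp57*-/- libraries, and the largest SE of any mRNA (0.62). *mt-Atp8* overlaps *mt-Atp6*, and *mt-Nd4l* overlaps *mt-Nd4*, on the same strand, so that reads in the overlap cannot be given to either gene.

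Both rRNAs were lower in each *Zfp57*-/- library than in each wild-type library. *mt-Rnr1* (chrM:70-1024), the rRNA of the small mitoribosomal subunit, had 1261 and 967 CPM per kb in wild-type and 579 and 741 in *Zfp57*-/- libraries. Its log2 fold change was −0.76 ± 0.22 (SE, adjusted p = 0.0297, edgeR), and it was not called when either *Zfp57*-/- replicate was left out. *mt-Rnr2* (chrM:1094-2675), the rRNA of the large subunit, had 7667 and 4673 CPM per kb in wild-type and 3072 and 4339 in *Zfp57*-/- libraries. Its log2 fold change of −0.74 ± 0.28 (SE) did not pass with edgeR (adjusted p = 0.0779) and passed with DESeq2 (adjusted p = 0.0266). The libraries were depleted of rRNA, so that these counts are what the depletion left, and a difference in its efficiency and a difference in the RNA cannot be told apart.

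Of the 13 tRNAs tested, 12 had a lower normalised count in both *Zfp57*-/- libraries than in either wild-type library, as had 32.6% of all genes tested. The 6 called lower were those whose sequences are given above, and 5 of the 6 lie on the plus strand. *mt-Tw*, with the anticodon TCA, had 258 and 280 counts in wild-type against 67 and 64 in *Zfp57*-/- libraries. Its SE was the smallest of the 6, with a log2 fold change of −2.09 ± 0.25 (SE, adjusted p = 0.000282, edgeR). *mt-Tm*, with the anticodon CAT, had 185 and 151 counts in wild-type against 15 and 47 in *Zfp57*-/- libraries, a log2 fold change of −2.53 ± 0.47 (SE, adjusted p = 0.0034, edgeR). *mt-Tg*, with the anticodon TCC, had 175 and 159 counts in wild-type against 6 and 34 in *Zfp57*-/- libraries, a log2 fold change of −3.14 ± 0.56 (SE, adjusted p = 0.00274, edgeR). The first *Zfp57*-/- replicate was the lower of the 2 for *mt-Tm* and *mt-Tg*, and the groups did not overlap.

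*mt-Tp* and *mt-Tt* adjoin each other on opposite strands next to the non-coding control region. *mt-Tp* had 116 and 39 counts in wild-type against 14 and 25 in *Zfp57*-/- libraries, a log2 fold change of −2.13 ± 0.63 (SE, adjusted p = 0.0322, edgeR). *mt-Tt* had 34 and 27 counts in wild-type against 1 and 5 in *Zfp57*-/- libraries, a log2 fold change of −3.38 ± 0.79 (SE, adjusted p = 0.0115, edgeR). The replicates of *mt-Tp* were far apart in wild-type, and it was not called without the first wild-type or the first *Zfp57*-/- replicate. *mt-Tt* was not called without the first *Zfp57*-/- replicate. *mt-Tl2* had 12 and 10 counts in wild-type against 0 and 1 in *Zfp57*-/- libraries, a ratio of 0.0441 with an exact 95% counting interval from 0.00107 to 0.273. It was called by edgeR (adjusted p = 0.0272) and not by DESeq2 (adjusted p = 0.0754), and not when either *Zfp57*-/- replicate was left out. The calls of *mt-Tm*, *mt-Tw* and *mt-Tg* were the 3 that were kept under every scaling, filter, tool and left-out library tried at the adjusted p of 0.05.

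**Figure D2:**
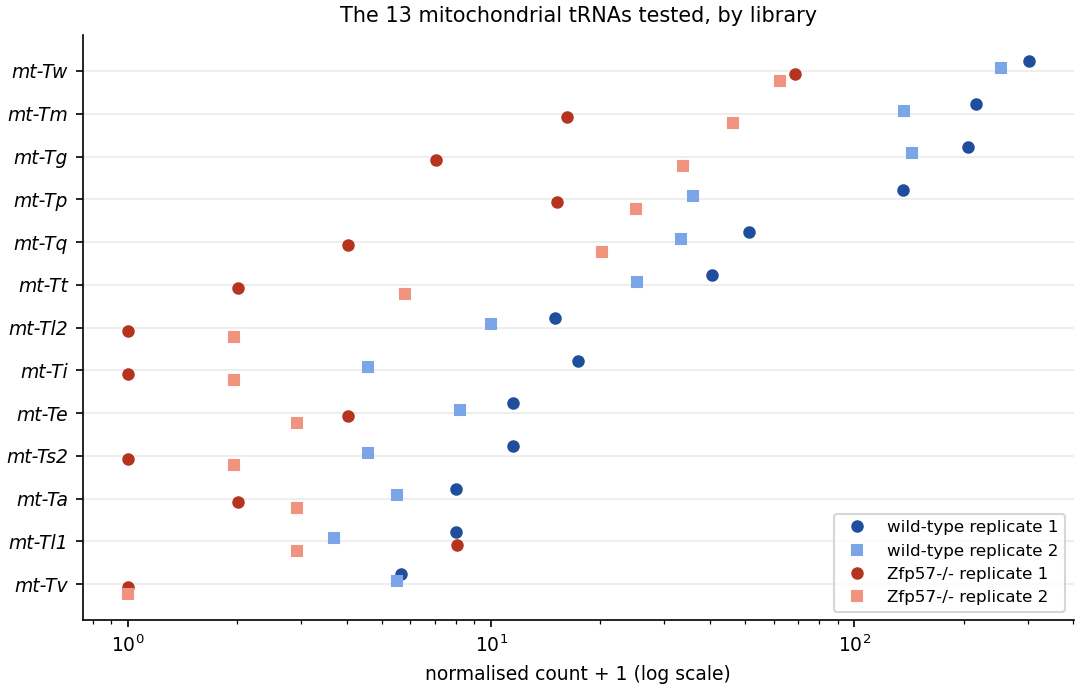
Normalised counts plus 1 of the 13 tested tRNAs in each library, on a log axis, with 1 point per library. Blue wild-type points lie right of red *Zfp57*-/- points for every tRNA but *mt-Tl1*, and most tRNAs below *mt-Tt* rest on a few counts a library.

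The other tested tRNAs rest on few counts. *mt-Tq* had 43 and 36 counts in wild-type against 3 and 20 in *Zfp57*-/- libraries (adjusted p = 0.0867, edgeR). *mt-Ti* had 14 and 4 against 0 and 1 counts, *mt-Ts2* 9 and 4 against 0 and 1, *mt-Te* 9 and 8 against 3 and 2, and *mt-Ta* 6 and 5 against 1 and 2. *mt-Tl1* had 6 and 3 counts in wild-type against 7 and 2 in *Zfp57*-/- libraries, so that its groups overlapped. *mt-Tv* had 4 and 5 counts in wild-type and none in *Zfp57*-/- libraries, at least 1.53-fold lower against a floor of 3 counts per library. With *mt-Tv* set at that bound, the median log2 fold change of the tested tRNAs was −2.13. The 9 tRNAs that were not tested had at most 8 counts summed over the libraries, and *mt-Tf* had 0 in every library. The others, *mt-Tn*, *mt-Tc*, *mt-Ty*, *mt-Ts1*, *mt-Td*, *mt-Tk*, *mt-Tr* and *mt-Th*, had from 1 to 8 counts in all.

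The tRNA counts were also low relative to the mitochondrial mRNAs of the same libraries. They equalled 0.705% and 0.704% of the mRNA counts in the wild-type libraries and 0.13% and 0.186% in the *Zfp57*-/- libraries. The wild-type replicates, which differed in their mRNA share, lay close together here. When the summed counts of the 13 mRNAs were used as the scale, 7 tRNAs were called lower, where 8.38% of all genes tested were, namely the 6 above and *mt-Ti*, and no member was called higher, where 9.83% of all genes were. On that scale no mRNA or rRNA was called by edgeR, and 0 of either were lower at an unadjusted p under 0.05. Scaling to their own sum centres the mRNAs by construction, and *mt-Nd2*, *mt-Nd6* and *mt-Nd4l* still had log2 fold changes of −0.71, −0.75 and −0.45 there. The median of all genes was 0.23 on that scale, against −2.28 over the tRNAs. Set against the mRNA counts, the rRNA counts were 85.9% and 81.8% in wild-type and 56.2% and 66.5% in *Zfp57*-/- libraries, with log2 fold changes of −0.49 for *mt-Rnr1* (adjusted p = 0.561, edgeR) and −0.45 for *mt-Rnr2* (adjusted p = 0.634, edgeR).

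**Figure D3:**
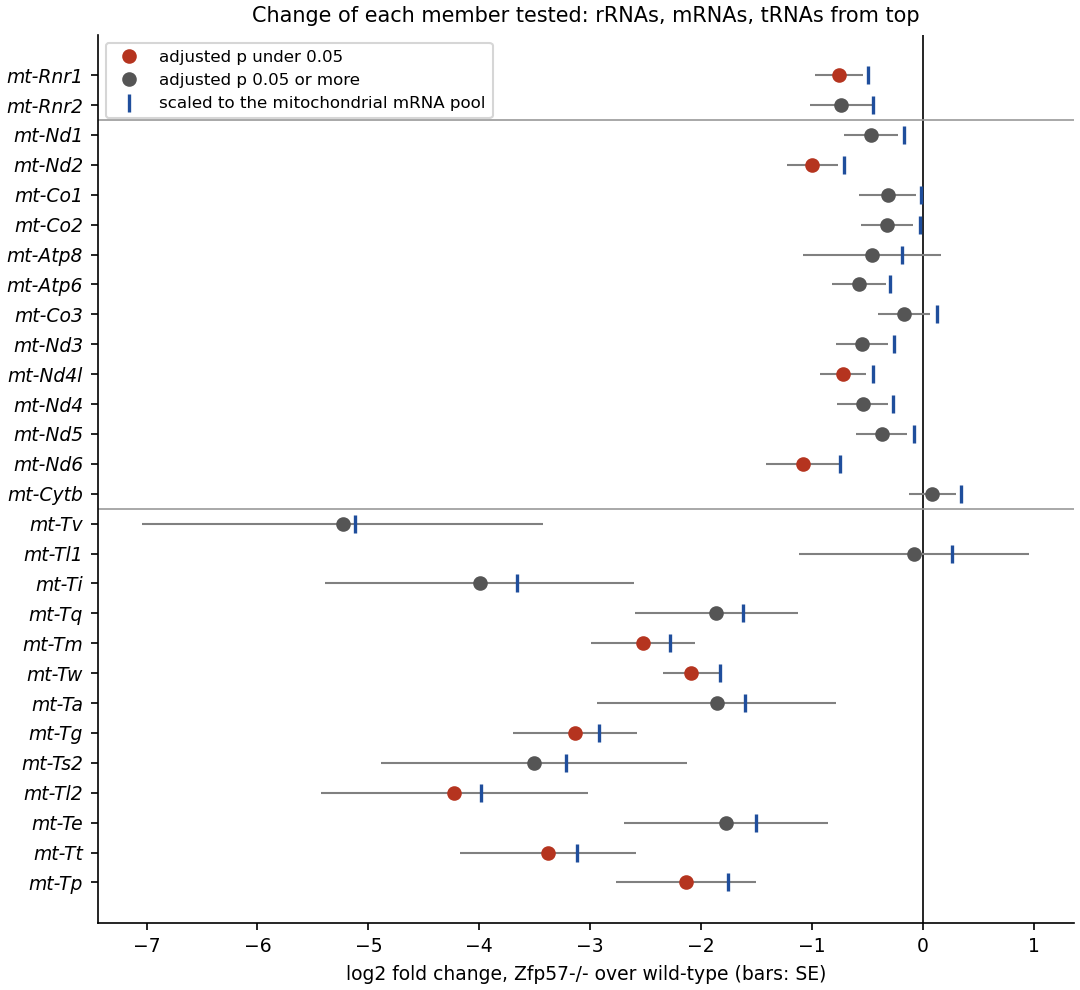
Log2 fold change of the 28 tested mitochondrial genes, *Zfp57*-/- over wild-type, with SE bars (points) and the value with the mitochondrial mRNA pool as the scale (blue ticks). Red points passed an adjusted p under 0.05. The tRNAs lie left of the mRNAs on both scales except *mt-Tl1*, and the fitted values of *mt-Tv*, *mt-Ti*, *mt-Ts2* and *mt-Tl2*, with 0 or 1 count in each *Zfp57*-/- library, are no bounds.

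The tRNA genes are 59 to 75 bases long and the reads could be longer, so that a tRNA's place among its neighbours could bear on what is counted. A fragment that also touches an adjacent gene on the same strand is not given to either gene. *mt-Tw* has 311 bases free of same-strand genes at one side, and *mt-Tm* has 70. *mt-Tg* has 0 free bases on both sides, between *mt-Co3* and *mt-Nd3*, and yet only *mt-Tw* and *mt-Tm* had more counts summed over the wild-type libraries. *mt-Tv*, also with 0 free bases on both sides, had 5 counts at most. On the minus strand, *mt-Tq* has 3771 and 1175 free bases at its sides and had 102 counts over the libraries. *mt-Ts1* has 1543 and 6613 free bases and had 1 count. Whether free bases go with counts was not tested. The plus-strand tRNAs summed to 707 and 651 counts in wild-type against 96 and 156 in *Zfp57*-/- libraries, and the minus-strand tRNAs to 177 and 98 against 21 and 51.

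As other short RNAs, a comparison chosen after the data were seen, nuclear snoRNA, snRNA, scaRNA and miRNA genes of at most 200 bases were looked at in the same fit. Of 383 such genes tested, 35 were called higher and 8 lower, where 13% of all genes tested were called higher and 14.6% lower. Their median log2 fold change was 0.42, beside −0.010 over all genes tested. Of these, 15 of 148 snoRNA genes were called higher and 1 lower (median 0.88), 2 of 76 snRNA genes higher and 3 lower (median −0.17), 0 of 11 scaRNA genes higher and 1 lower (median −0.062), and 18 of 148 miRNA genes higher and 3 lower (median 0.27). With *Actb* as the scale the median of all 383 was −0.31, beside −0.68 over all genes. The miRNA genes summed to 0.038% and 0.0358% of counts in wild-type and to 0.228% and 0.161% in *Zfp57*-/- libraries. The snoRNA, snRNA and scaRNA genes together gave 0.048% and 0.0236% in wild-type and 0.0469% and 0.0368% in *Zfp57*-/- libraries, which overlapped. The scaRNA genes alone were lower in both *Zfp57*-/- libraries, with 0.00492% and 0.00286% against 0.0023% and 0.00197%. How each library kept RNAs of tRNA length was not tested.

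The nuclear genes that make, process and use mitochondrial RNA were mostly at higher values in *Zfp57*-/- cells, with 197 log2 fold changes positive and 36 negative. Over 10 lists with 233 tested genes, 36 genes were called higher, 15.5% against 13% of all genes, and 2 were called lower, 0.858% against 14.6% of all genes. The median log2 fold change was 0.37, and it ranged from 0.16 without the first wild-type replicate, where 8 genes were called lower, to 0.62 without the second. The counts and the signs depend on the scale. With *Actb* as the scale 54 genes were positive and 179 negative, and 0 were called higher and 1 lower. The median of the lists was then −0.24 beside −0.68 over all genes. With the mitochondrial mRNA pool 216 were positive and 17 negative, and 8 were called higher and 1 lower. Without single libraries the number called ranged from 7, without the first *Zfp57*-/- replicate, to 155, without the second wild-type replicate. It was 12 without the second *Zfp57*-/- and 64 without the first wild-type replicate.

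Of the 16 genes for transcription and replication of mitochondrial DNA, 3 were called higher and 0 lower. Over all genes tested, 13% were called higher and 14.6% lower. *Polrmt* had 171 and 231 counts in wild-type against 298 and 240 in *Zfp57*-/- libraries, a log2 fold change of 0.39 ± 0.23 (SE, adjusted p = 0.242, edgeR). *Tfam*, which packages and activates mitochondrial DNA, had 397 and 662 against 644 and 684 counts (0.31 ± 0.20, SE, adjusted p = 0.289, edgeR). Neither passed the test. *Mgme1*, a nuclease of mitochondrial DNA maintenance, rose from 120 and 149 to 318 and 322 counts (1.20 ± 0.22, SE, adjusted p = 0.00297, edgeR). *Mterf4*, a factor of mitoribosome assembly, rose from 214 and 223 to 497 and 426 counts (1.02 ± 0.22, SE, adjusted p = 0.00754, edgeR).

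Of the 21 genes for cleavage, stability and decay of mitochondrial RNA, 6 were called higher and 0 lower, with a median of 0.53. Over all genes tested, 13% were called higher and 14.6% lower. *Fastkd2*, which binds mitochondrial rRNA and *mt-Nd6* RNA, rose from 305 and 306 to 698 and 677 counts (1.11 ± 0.21, SE, adjusted p = 0.00361, edgeR). *Tbrg4*, a member of the same family, rose from 299 and 453 to 820 and 753 counts (1.04 ± 0.20, SE, adjusted p = 0.00389, edgeR). *Lrpprc*, which stabilises mitochondrial mRNAs, had 1117 and 1425 against 1796 and 1766 counts and did not pass (0.44 ± 0.18, SE, adjusted p = 0.0989, edgeR).

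Of the 18 genes for modification of mitochondrial tRNA and rRNA, 4 were called higher and 1 lower. This count and those of the next lists stand beside 13% of all genes tested called higher and 14.6% called lower. *Yrdc* and *Cdk5rap1*, both tRNA modification enzymes, rose with log2 fold changes of 0.84 and 1.17. *Tfb1m*, the methyltransferase that modifies the rRNA of the small mitoribosomal subunit, fell from 74 and 138 to 51 and 49 counts, a log2 fold change of −1.09 ± 0.34 (SE, adjusted p = 0.0388, edgeR). Of the 20 mitochondrial aminoacyl-tRNA synthetases, which load amino acids onto the tRNAs, 3 were called higher and 0 lower, with a median of 0.14. *Tars2*, the enzyme for *mt-Tt*, rose with a log2 fold change of 1.05 ± 0.21 (SE, adjusted p = 0.00535, edgeR), and *Yars2* with 0.93 ± 0.20 (SE, adjusted p = 0.00845, edgeR). Of 8 regulators of mitochondrial biogenesis, *Pprc1* was called higher (1.13 ± 0.19, SE, adjusted p = 0.00205, edgeR). *Perm1*, with 7 and 6 counts in wild-type and 0 in both *Zfp57*-/- libraries, was called lower (adjusted p = 0.0355, edgeR), at least 2.26-fold lower against a floor of 3 counts per library.

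The lists of nuclear partners of the mitochondrial proteins also had positive medians. Their counts of called genes stand beside 13% of all genes tested called higher and 14.6% called lower. Of 77 tested mitoribosomal protein genes, 11 were called higher and 0 lower, with *Mrpl15* (1.36) and *Mrps18b* (1.36) at the smallest adjusted p. Of 36 nuclear complex I subunit genes, 3 were called higher and 0 lower, with a median of 0.27, among them *Ndufa10* (0.87) and *Ndufb3* (0.91). Among the 9 genes of complex III, *Uqcrb* was called higher (0.87). Of 11 complex IV subunit genes, 4 were called higher, including *Cox5b* (1.23) and *Cox6c* (0.67), and the median was 0.55. No ATP synthase subunit gene of 17 tested was called in either direction by edgeR or DESeq2, with 4 higher and 0 lower at an unadjusted p under 0.05.

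**Figure D4:**
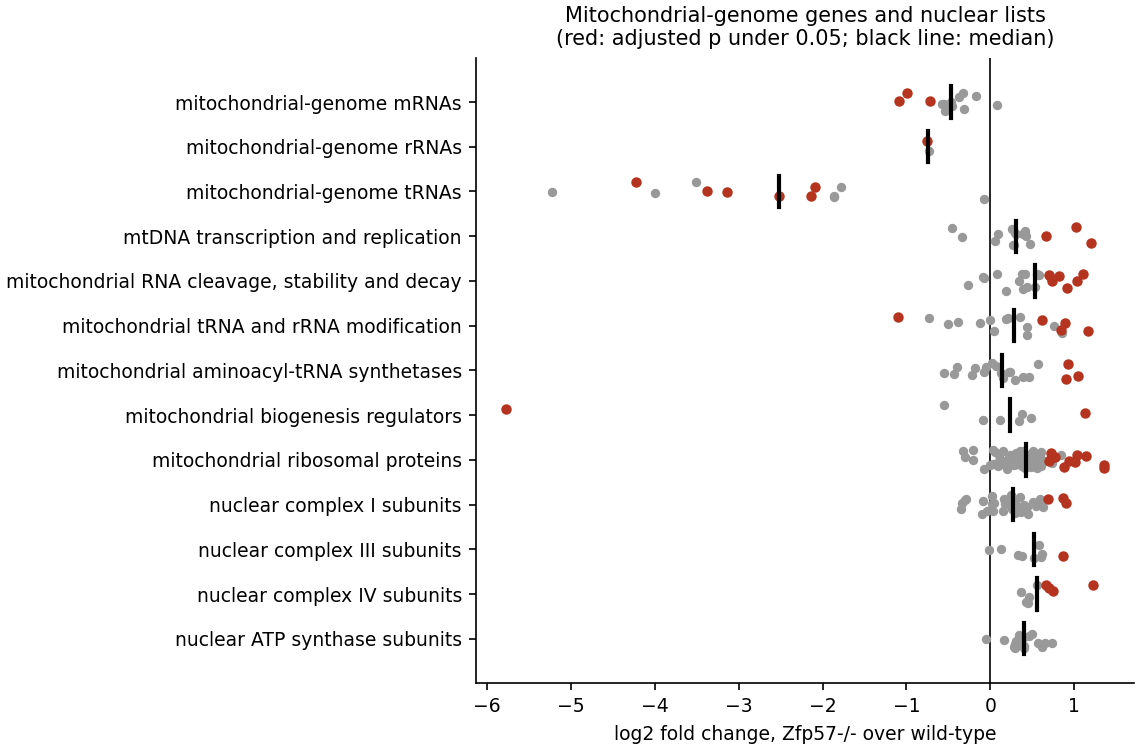
Log2 fold change of each tested gene, *Zfp57*-/- over wild-type, for the 3 classes of mitochondrial-genome RNA and 10 lists of nuclear genes, with red points at an adjusted p under 0.05 and a black line at the median of each list. The medians of the mitochondrial-genome classes lie at −0.47, −0.75 and −2.53, and those of the nuclear lists between 0.14 and 0.55, beside −0.010 over all genes tested.

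The allele table splits fragments into JF1 and B6 at known differences between the strains. All 37 mitochondrial genes were listed there, and all had 0 JF1 and 0 B6 fragments in all 4 libraries. The libraries held from 2837013 to 3826604 allelic fragments in all. Whether any position on chromosome M was among the strain differences used is not given in the sources used here, so that no limit is drawn from these zeros. Maternal inheritance could therefore not be read from the genes on chromosome M.

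A stretch of chromosome 1 carries nuclear copies of part of the mitochondrial genome, and fragments were assigned there. From 24611535 to 24616197 on the minus strand lie 7 annotated copies. They are compared here with the mitochondrial genes by reference sequence only, and JF1 sequences were not compared. *Gm10925* (*mt-Atp6*), *Gm28437* (*mt-Co3*), *Gm28439* (*mt-Nd4*), *Gm28661* (*mt-Co2*) and *Gm10222* (*mt-Nd4l*) were 100% identical to the matching part of the mitochondrial gene named beside each. *Gm29216* matched 482 of 483 aligned bases of *mt-Co1*, and *Gm28438* matched 344 of 345 bases of *mt-Nd3*. The start of the last pair is shown because it holds the only difference between them over the aligned bases, the substitution T3C counted from the first base of *mt-Nd3*, with that base in capitals.
mt-Nd3: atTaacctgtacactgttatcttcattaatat
Gm28438: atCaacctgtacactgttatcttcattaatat

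Reads of such copies and of the mitochondrial genes cannot be told apart where the sequences are the same. Where they are the same in the RNA of these cells was not analysed. In the bulk table the 7 copies summed to 24199 and 20079 counts in wild-type against 16179 and 20044 in *Zfp57*-/- libraries. *Gm28438* was the copy called lower, from 370 and 324 to 185 and 205 counts, a log2 fold change of −0.91 ± 0.24 (SE, adjusted p = 0.0211, edgeR). Its mitochondrial partner *mt-Nd3* did not pass (adjusted p = 0.107, edgeR). When the counts of the copies were added to their partners, an alternative added after the data were seen, the same 10 mitochondrial genes were called. Of these 10 only *mt-Nd4l* is such a partner, and the counts of the rRNAs and tRNAs were left as they were. Reads that matched both places equally were not kept as unique alignments and could not be added back. Whether the tRNA calls depend on the copies was therefore not tested.

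In the allele table the 7 copies together had 32118 and 25890 JF1 fragments in wild-type and 23367 and 26178 in *Zfp57*-/- libraries, and 0 B6 fragments in every library. Those totals allow a B6 share of at most 0.00934% to 0.0128% per library. *Gm29216* had 20415 and 17065 JF1 fragments in wild-type and 17023 and 18208 in *Zfp57*-/- libraries, although its bulk counts were only 851 and 721 in wild-type and 947 and 864 in *Zfp57*-/- libraries. *Gm28438* had 6972 and 5492 JF1 fragments in wild-type and 3915 and 4686 in *Zfp57*-/- libraries, and *Gm28661* had 4104 and 2902 against 2213 and 2921. The allele table was made from a genome masked at the strain differences and the bulk table was not, and where the same read was placed in each was not analysed here.

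**Figure D5:**
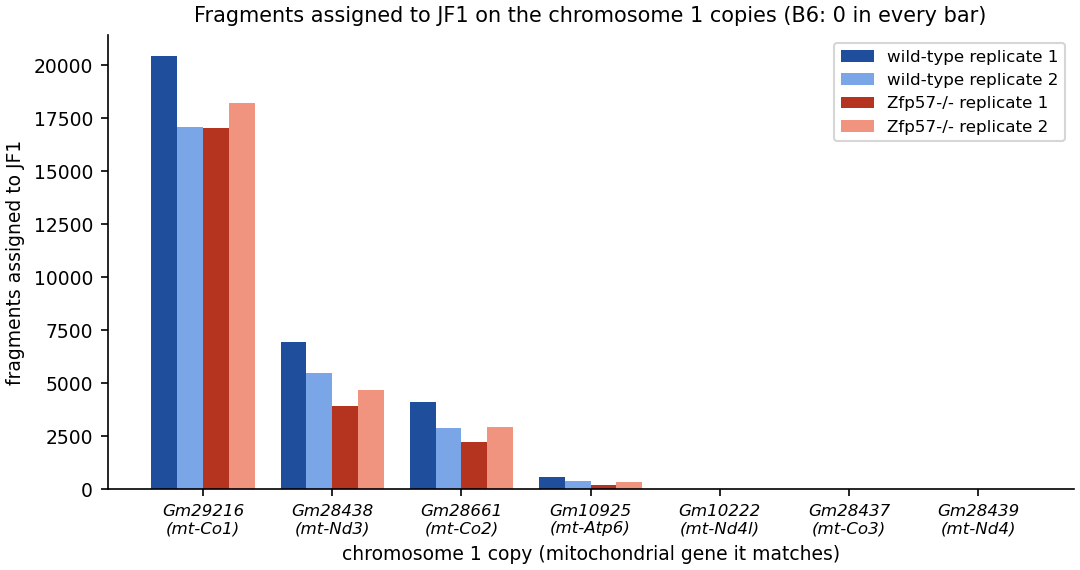
JF1 fragments of the 7 chromosome 1 copies in each library, as bars from 0, with the matching mitochondrial gene in brackets. *Gm29216*, *Gm28438* and *Gm28661* hold most of the fragments, between 2213 and 20415 a library, and B6 fragments were 0 throughout.

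The surrounding chromosome was not assigned in this one-sided way. Among the 15 nearest chromosome 1 genes with at least 10 allelic fragments in every library, the median JF1 share was 47.1% and 45.5% in wild-type and 59.3% and 63.5% in *Zfp57*-/- libraries, and no gene was above 80.8%. Of 3548 autosomal genes with at least 1000 allelic fragments in all, 6 had no B6 fragment. Of these, 4 were the copies *Gm29216*, *Gm28438*, *Gm28661* and *Gm10925*, and the others, named after their values were seen, were *Gm10076* and *Gm4076*. The JF1 strain is the mother's, from which mitochondrial DNA is inherited. Whether these fragments came from mitochondrial RNA or from chromosome 1 cannot be told apart with these tables.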

How the data were processed

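RNA-seq of 2 wild-type and 2 *Zfp57*-/- JB1 libraries at day 12 was taken from the tables of raw counts that the authors deposited. The authors sequenced stranded, rRNA-depleted total RNA (paired reads of 125 bp), trimmed with Trimmomatic 0.36, kept unique alignments from STAR 2.5.4a, and counted fragments per GENCODE vM20 gene with featureCounts of Subread 1.6.0, by strand per the file headers. For the allele table they split reads from a masked genome with SNPsplit and counted fragments per strain. Both tables are counts without normalization. The allele columns were read as whole JF1 and B6 fragment counts.

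Genes with more than 8 counts summed were tested with edgeR 4.0.16 (R 4.3.3, TMM, robust quasi-likelihood test, genotype only) and adjusted by Benjamini-Hochberg over all genes tested; DESeq2 1.42.0 was an alternative. The script was tested on simulated data. Levels are CPM (library sizes scaled by TMM) per kb of exon length; normalised counts are scaled to the mean effective library size. A fold against 0 uses a floor of 3 counts per library, and the counting interval (exact, 95%) and limits for 0 cover counting error only. The 37 genes had the same coordinates and strand in GENCODE vM21, which gave the sequences; GRCm38 is the build of both.

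The text names all members, and in each nuclear list the 2 called genes of lowest adjusted p per direction, with *Polrmt*, *Tfam* and *Lrpprc*. Members and lists were chosen with earlier results of these data known. Other scalings, filters, thresholds, a replicate block and leaving out each library were tried.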

Additional observations from a re-analysis of the deposited data

How the results depend on the processing

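Members called higher stayed at 0 under every alternative. Against 10 in the main analysis, the members called lower numbered 3 at an adjusted p of 0.01 and from 3 (without the first *Zfp57*-/- replicate) to 23 (without the second wild-type replicate) with 1 library left out; all 3 of the former and all 10 of the main calls in the latter were shared. Left-out fits assume that the lone library varies like the other genotype. Genes called on the nuclear lists numbered 38, against 12 at an adjusted p of 0.01, 9 with the mitochondrial mRNA pool and 1 with *Actb* as the scale, and 7 to 155 with 1 library left out. Over all genes, 5522 calls (47.2% higher) became 3642 with the mRNA pool, 3480 with *Actb* (14% higher) and 2831 to 9947 with 1 library left out. The shares of mRNA, rRNA and tRNA kept their direction with other denominators and without each library. The size of the mRNA difference did not hold: it was −0.33 percentage points in the main analysis. Without the first wild-type replicate it was −0.032, and without the second −0.63. No allelic read remained to filter, so that a minimum of 10 gave no value.

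Signs turned for 6 members. *mt-Tl1* was at 0.26 with the mRNA pool and from −1.24 to 0.68 without single libraries, *mt-Co3* at 0.13 with the mRNA pool and from −0.46 to 0.17, and *mt-Cytb* at −0.67 with *Actb* and from −0.088 to 0.25. Without single libraries *mt-Co1* ranged from −0.63 to 0.050, *mt-Co2* from −0.62 to 0.015 and *mt-Atp8* from −1.82 to 0.24. The cause was not tested.

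The replicate numbers are shared between genotypes, but no label ties them to a batch. Over 11736 genes, the correlation between the deviations of libraries with the same number was 0.157. With a replicate block, 13 members were called lower, among them all 10 of the main analysis, and 72 genes of the nuclear lists, of 6984 in all.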
